A study of Mus musculus with 6 samples.

Results

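Receptor activity-modifying proteins and the receptor they accompany were followed through the tumors of treated mice as 4 genes, Ramp1, Ramp2, Ramp3 and Calcrl, out of 34187 genes counted. Calcrl encodes the calcitonin receptor-like receptor, a G protein-coupled receptor that reaches the cell surface with its ligand specificity only when it is paired with a RAMP. With RAMP1 the pair is the receptor for calcitonin gene-related peptide, a neuropeptide of sensory fibers, and with RAMP2 or RAMP3 it is a receptor for adrenomedullin, a peptide of the vessel wall. Ligand binding raises cyclic AMP. The RAMP2 pair is best known from blood and lymphatic endothelium, where it maintains the vessel barrier. The genes were listed by name and chosen by the Ramp3 levels of these same libraries, which were lower with IL10/2-Trikine in T cells and macrophages. In those cells the levels of all 4 genes with IL10/2-Trikine, set beside PBS or mono-IL10, are therefore a description with no test.

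Single-cell RNA sequencing (10x GEM-X, 5' end) had been run on cells that were isolated with CD45 beads from subcutaneous tumors of 6694c2vTRP1, a pancreatic cancer line, grown in C57BL/6 mice. The mice received PBS, mono-IL10 at 26 µg (a monomeric form of the cytokine IL-10) or IL10/2-Trikine at 30.6 µg (IL-10 joined to a binder so that the IL-2 receptor beta chain is engaged as well). All groups had 2 doses starting on day 8, and tumors were taken on day 14. Each group was 1 library of 5 hashtagged mice, so a treatment and its library cannot be told apart, and the spread between mice is the spread within 1 library. T and NK cells are those of the authors' annotation (1221 and 863 cells). The other populations were named here from their markers: 13949 macrophages, 371 conventional dendritic cells, 433 mature dendritic cells, 995 endothelial cells, 514 mural cells, 2234 fibroblasts, 888 neutrophils, 154 mast cells and 42045 tumor epithelial cells, with 28366 cells in 21 unnamed clusters. A further 820 cells without an annotation, in 5 clusters named T cell, Treg or NK cell, went into no population.

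The libraries held 364814102 to 515236552 gene UMIs (unique molecular identifiers, 1 for each captured RNA molecule) over 30528 to 55504 barcodes, and the share of kept cells with a mouse was lowest in IL10/2-Trikine at 63.5%, against 76.9% (PBS) and 80.4% (mono-IL10). Pairs of libraries shared 206 to 342 cell barcodes. The cells did not all match the CD45+ label, since the 42045 tumor epithelial cells carried the keratins Krt8 at 2140 CPM (the UMIs of a gene per 1000000 UMIs of the same cells), Krt18 at 1440 CPM and Krt19 at 975 CPM, with the other epithelial markers Epcam and Cldn4 at only 16.8 and 10.4 CPM. Defining markers were detected in the immune and vascular populations, with Cd3e at 518 CPM in T cells, C1qa at 2530 CPM in macrophages, Ccr7 at 2660 CPM in mature dendritic cells and Cdh5 at 1200 CPM in endothelial cells. NK cell markers were found in the T cells too, most with IL10/2-Trikine, and their sums stand with the T cell results. Of the conventional dendritic cell markers, Xcr1 stood at 313 CPM and Cd209a at 3.42 CPM.

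The sequences upstream of Ramp3, Ramp1 and Calcrl are shown because the first was the gene for which the list was drawn up, the second was the member called by a test, and the third is the receptor they share. The receptors of IL-10 and IL-2 signal through STAT factors, and the receptor pair itself through cyclic AMP, so the letters of both kinds of site were searched. The 250 bases before each annotated start come from RefSeq (build GRCm38.p6), matched by symbol for 3 of the 4 genes, at chr11:6658283-6658532 on the plus strand for Ramp3, chr2:84425267-84425516 on the minus strand for Calcrl and chr1:91179572-91179821 on the plus strand for Ramp1. Capitals mark the GC box GGGCGG or its reverse complement CCGCCC, searched on both strands.
Ramp3: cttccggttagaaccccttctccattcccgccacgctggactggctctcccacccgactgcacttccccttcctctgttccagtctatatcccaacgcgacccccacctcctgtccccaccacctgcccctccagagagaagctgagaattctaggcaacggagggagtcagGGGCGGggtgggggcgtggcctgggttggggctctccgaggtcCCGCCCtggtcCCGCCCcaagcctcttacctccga
Calcrl: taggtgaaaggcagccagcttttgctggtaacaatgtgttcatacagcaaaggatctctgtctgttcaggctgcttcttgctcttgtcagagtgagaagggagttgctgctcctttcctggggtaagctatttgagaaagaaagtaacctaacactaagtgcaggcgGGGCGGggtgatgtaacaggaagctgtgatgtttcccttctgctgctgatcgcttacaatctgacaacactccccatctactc
Ramp1: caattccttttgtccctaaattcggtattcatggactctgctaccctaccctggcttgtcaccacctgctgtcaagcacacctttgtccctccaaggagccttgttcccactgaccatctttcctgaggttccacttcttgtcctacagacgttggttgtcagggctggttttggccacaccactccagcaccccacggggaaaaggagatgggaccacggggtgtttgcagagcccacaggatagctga

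The Ramp3 window held 3 GC boxes and was 65.2% G or C, the Calcrl window held 1 and was 48.4%, and the Ramp1 window held 0 and was 54%. Of 27025 such promoters, 32.9% held at least 1 GC box and the median G or C content was 52%. The letters of a STAT site, TTCNNNGAA, stood in 7.18% of all promoters and those of a cyclic AMP response element, TGACGTCA, in 1.62%, and neither stood in these 3 windows. Both motifs read the same on either strand. A match or its absence in 250 bases describes the letters only.

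By summed level, Ramp2 and Calcrl were both highest in endothelial cells, and Ramp1 and Ramp3 both in Th17/ILCs. Summed over the 3 libraries, Ramp2 was at 714 CPM in endothelial cells and 42.6 CPM in mural cells, the contractile cells around vessels, and at or under 5.22 CPM in every other named population. In T cells 0 of 4634202 UMIs came from Ramp2, which allows up to 0.647 CPM. Calcrl was at 303 CPM in endothelial cells, 66.1 CPM in mural cells and 59.7 CPM in annotated regulatory T cells (Treg), against 4.23 CPM in tumor epithelial cells. Ramp3 was led by immune cells, with 750 CPM in Th17/ILCs, 738 CPM in mature dendritic cells, 505 CPM in activated CD4 T cells (act_CD4T) and 231 CPM in naive CD4 T cells. Ramp1 was highest in Th17/ILCs at 512 CPM, and next in Cycling_Treg at 120 CPM, mural cells at 79.4 CPM and tumor epithelial cells at 69.4 CPM.

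**Figure D1:**
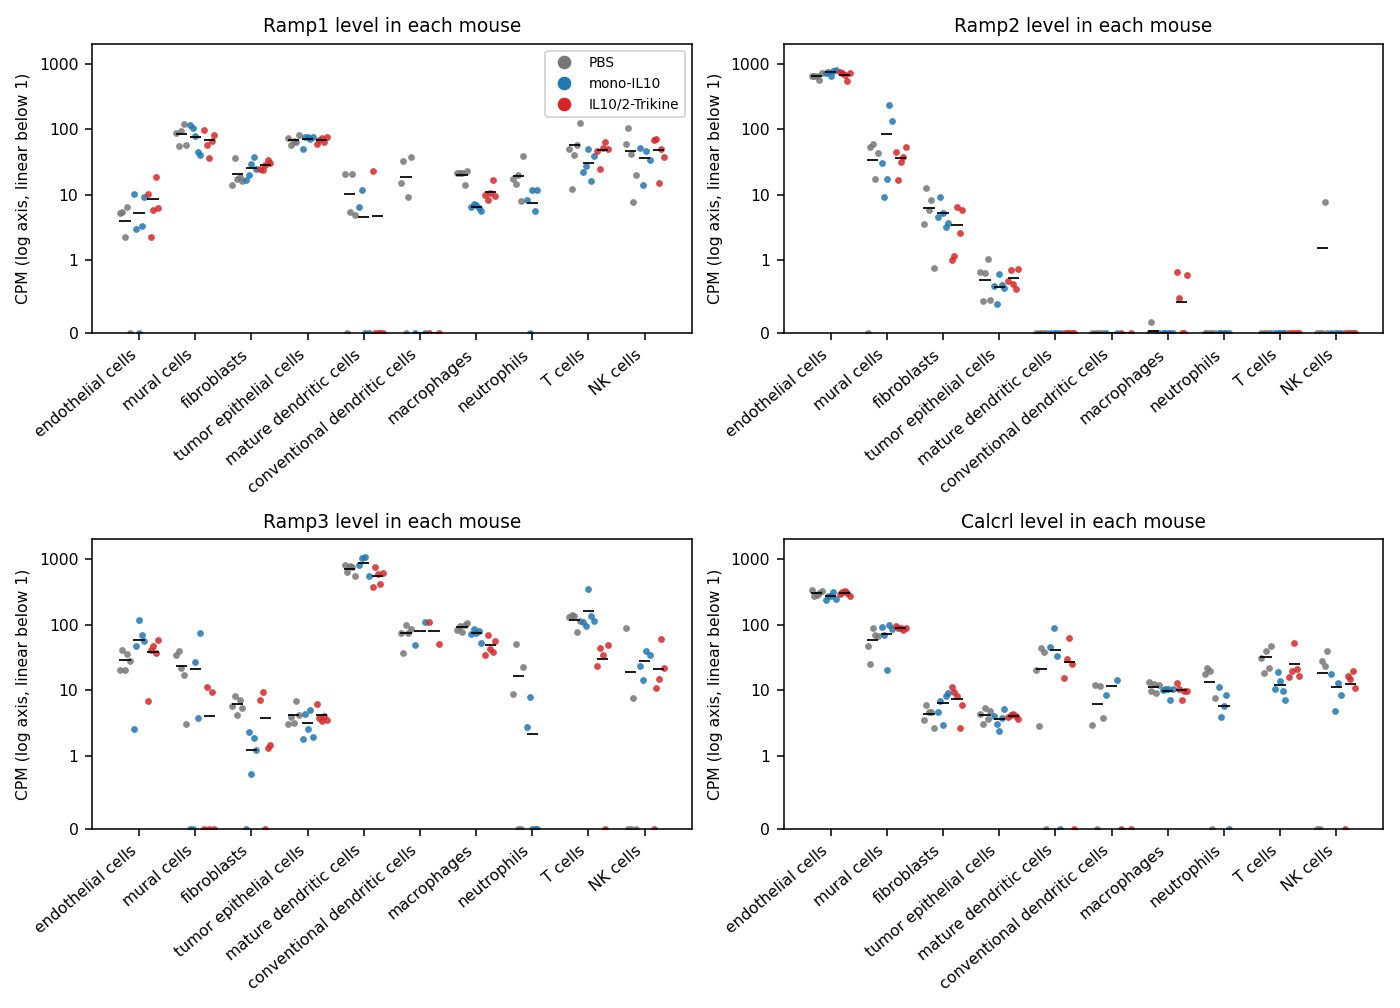
Level of each member (CPM) in each mouse by cell population and treatment, with points for mice and lines for group means. Ramp2 and Calcrl stand out in endothelial cells, with PBS means of 648 and 305 CPM. Ramp3 stands out in mature dendritic cells, with a PBS mean of 708 CPM.

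Neighbors in the order of Ramp3 often could not be separated by counting error. The exact Poisson interval (95%, counting error only) of Th17/ILCs, 538 to 1020 CPM from 21 cells, contained that of mature dendritic cells, 707 to 769 CPM, and overlapped that of act_CD4T cells, 454 to 560 CPM. The intervals of conventional dendritic cells, 78.9 to 98.3 CPM, macrophages, 78.2 to 81.9 CPM, and Treg cells, 48.3 to 110 CPM, overlapped one another. Endothelial cells, at 41.0 to 48.7 CPM, lay below conventional dendritic cells and macrophages. Their interval overlapped that of Treg cells and that of gdT/NKT cells, 28.2 to 62.2 CPM. Tumor epithelial cells were at 3.01 to 3.27 CPM. These intervals pool mice and libraries and do not measure the spread between mice.

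Endothelial cells carried the highest levels of both Calcrl and Ramp2 of the named populations, ahead of mural cells, and neither gene passed the test of any comparison. Ramp2 per mouse was 654, 650, 659, 567 and 710 CPM in PBS, a mean of 648 ± 51.2 (SD, n = 5). It was 723, 753, 644, 770 and 813 CPM in mono-IL10 (741 ± 62.9) and 757, 711, 677, 536 and 727 CPM in IL10/2-Trikine (682 ± 86.3). The groups overlapped, with 4 of 5 mono-IL10 mice above every PBS mouse. The log2 difference of mono-IL10 from PBS was 0.25 with a standard error (SE) of 0.10 and an interval of 0.03 to 0.47, with an adjusted p of 0.407 (edgeR quasi-likelihood test, Benjamini-Hochberg adjustment over all 5776 genes tested). IL10/2-Trikine differed from PBS by 0.10 (edgeR adjusted p = 0.812) and from mono-IL10 by -0.15 (edgeR adjusted p = 0.638).

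Calcrl in endothelial cells was 334, 273, 281, 305 and 330 CPM in the PBS mice (305 ± 27.7). In mono-IL10 it was 243, 272, 278, 322 and 248 CPM (272 ± 31.5), and in IL10/2-Trikine 292, 316, 331, 304 and 273 CPM (303 ± 22.1). The 3 groups overlapped over most of their range. The log2 differences were -0.11 for mono-IL10 against PBS (interval -0.32 to 0.10), 0.03 for IL10/2-Trikine against PBS (-0.18 to 0.23) and 0.13 for IL10/2-Trikine against mono-IL10 (-0.09 to 0.35), with edgeR adjusted p of 0.784, 0.961 and 0.693.

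Ramp3 in endothelial cells was low and uneven between mice. It was 20.4, 40.7, 20.3, 36.5 and 28.5 CPM in PBS (29.3 ± 9.25), 2.58, 48.4, 117, 69.7 and 56.3 CPM in mono-IL10 (58.9 ± 41.3) and 6.88, 40.6, 47.7, 37.2 and 59.0 CPM in IL10/2-Trikine (38.3 ± 19.4). In mono-IL10, 4 mice lay above all PBS mice and 1 below them. The log2 difference of mono-IL10 from PBS was 1.04 (SE 0.44, interval 0.11 to 1.97, edgeR adjusted p = 0.425), and without the filter on low counts it was 1.01 with an adjusted p of 0.0244. Leaving out 1 mouse at a time moved it between 0.68 and 1.36, and with at least 20 cells per mouse it was 0.27 (edgeR adjusted p = 0.954). IL10/2-Trikine differed by 0.47 from PBS (edgeR adjusted p = 0.803) and by -0.57 from mono-IL10 (edgeR adjusted p = 0.717), the latter turning to 0.21 with at least 20 cells per mouse. Of the 3 members tested in endothelial cells, 0 passed in any comparison by edgeR or DESeq2, and Ramp2 and Ramp3 had an unadjusted p under 0.05 in mono-IL10 against PBS. Of all genes tested, 0.0173% were called in that comparison, 0.416% in IL10/2-Trikine against PBS and 0.225% in IL10/2-Trikine against mono-IL10. These sums rest on 253 PBS, 91 mono-IL10 and 213 IL10/2-Trikine cells with a mouse.

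The endothelial cells came from 2 clusters that carried Ramp2 and Calcrl alike and, by library sums, Ramp3 unequally. In the cluster led by Gpihbp1 and Flt1 (543 cells), Gpihbp1 being the capillary anchor of lipoprotein lipase, Ramp3 was at 65.6 CPM (counting interval 59.8 to 71.8). In the cluster led by Selp and Fabp4 (452 cells), Selp being the adhesion molecule P-selectin, it was at 13.0 CPM (9.95 to 16.7). Ramp2 was at 738 and 679 CPM in these clusters and Calcrl at 292 and 319 CPM. In the first cluster Ramp3 was at 51.0, 86.0 and 71.7 CPM in PBS, mono-IL10 and IL10/2-Trikine, and in the second at 19.3, 0 and 7.76 CPM. Over mice, Ramp3 in the first and second cluster was 35.1 ± 16.5 and 22.8 ± 20.3 CPM in PBS, with overlapping ranges. In IL10/2-Trikine it was 59 ± 28.7 and 9.91 ± 9.93 CPM, and in mono-IL10 only 2 mice had enough cells in each cluster. A further cluster of 338 cells, led by the lymphatic genes Lyve1 and Flt4 with Nts, stayed unnamed and carried Ramp2 at 423 CPM, Calcrl at 213 CPM and Ramp3 at 20.6 CPM. Clusters were formed from all genes, so these values are a description.

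At equal depth, endothelial cells with and without a Calcrl UMI held Ramp2 about equally often, a comparison that cannot show whether the genes go together. After each cell was thinned to 1500 UMIs, 344 of 995 endothelial cells held a Calcrl UMI, 612 a Ramp2 UMI and 213 both. Ramp2 was detected in 61.9% of the cells with Calcrl and in 61.3% of those without it. Unthinned, 823 cells held both genes, out of 850 with Calcrl and 951 with Ramp2. Most cells counted as without Calcrl after thinning had thus held it before. In tumor epithelial cells Calcrl was detected in 274 of 41996 thinned cells, or 0.652%. Median depths before thinning were 12381 UMIs in tumor cells and 8489 UMIs in endothelial cells.

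Mural cells, fibroblasts and tumor epithelial cells carried Ramp1, and no member passed a test across genes in them. Tumor epithelial Ramp1 was 68.7 ± 9.15 CPM in PBS, 70.2 ± 11.5 CPM in mono-IL10 and 68.7 ± 7.07 CPM in IL10/2-Trikine (n = 5 each), and the log2 difference of IL10/2-Trikine from PBS had an interval of -0.20 to 0.27. Mural cells had Ramp1 at 83.8, 76.9 and 67.4 CPM and Calcrl at 59.7 ± 24.4, 73.1 ± 31.3 and 89.8 ± 4.56 CPM in the same order of groups. Fibroblast Ramp1 was 20.8, 25.8 and 28.5 CPM. None of the members tested in these populations passed by edgeR or DESeq2, nor did any reach an unadjusted p under 0.05. For mono-IL10 against PBS, IL10/2-Trikine against PBS and IL10/2-Trikine against mono-IL10, edgeR called 0.101%, 1.06% and 4.28% of genes in fibroblasts, 6.59%, 21.7% and 33.7% in tumor cells and 0%, 0.254% and 0% in mural cells. The mural comparisons with 0 calls had 240 and 404 genes at an unadjusted p under 0.05, and DESeq2 called 0 and 14. Among members under the filter on low counts, fibroblast Ramp3 was 6.13 CPM in PBS and 1.25 CPM in mono-IL10 (exact permutation p = 0.00794, the smallest that 5 against 5 mice allow, unadjusted among 44 such tests), from 41 and 9 UMIs. Mural Ramp3 was 23.5 CPM in PBS and 4.13 CPM in IL10/2-Trikine (exact permutation p = 0.0317, unadjusted).

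Mature dendritic cells, which migrate to lymph nodes through Ccr7, held the most Ramp3 of the populations named here from markers, and no difference between treatments passed the test. In the 5 PBS mice it was 803, 636, 786, 767 and 547 CPM (708 ± 111). In the 4 mono-IL10 mice with at least 10 such cells it was 814, 1056, 1085 and 565 CPM (880 ± 243), and in IL10/2-Trikine 371, 761, 603, 424 and 606 CPM (553 ± 157). The lowest values, 371 and 424 CPM, came from IL10/2-Trikine mice and the highest from mono-IL10 mice, with the groups overlapping. The log2 difference was 0.37 for mono-IL10 against PBS (SE 0.22, edgeR adjusted p = 0.752), -0.41 for IL10/2-Trikine against PBS (SE 0.22, edgeR adjusted p = 0.707) and -0.78 for IL10/2-Trikine against mono-IL10 (SE 0.24, interval -1.27 to -0.29, edgeR adjusted p = 0.503). The last of these had an unadjusted p under 0.05. Of all genes, edgeR called 0.274% in mono-IL10 against PBS, 0.0274% in IL10/2-Trikine against mono-IL10 and 0% in IL10/2-Trikine against PBS, where 259 genes had an unadjusted p under 0.05 and DESeq2 called 1.

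**Figure D2:**
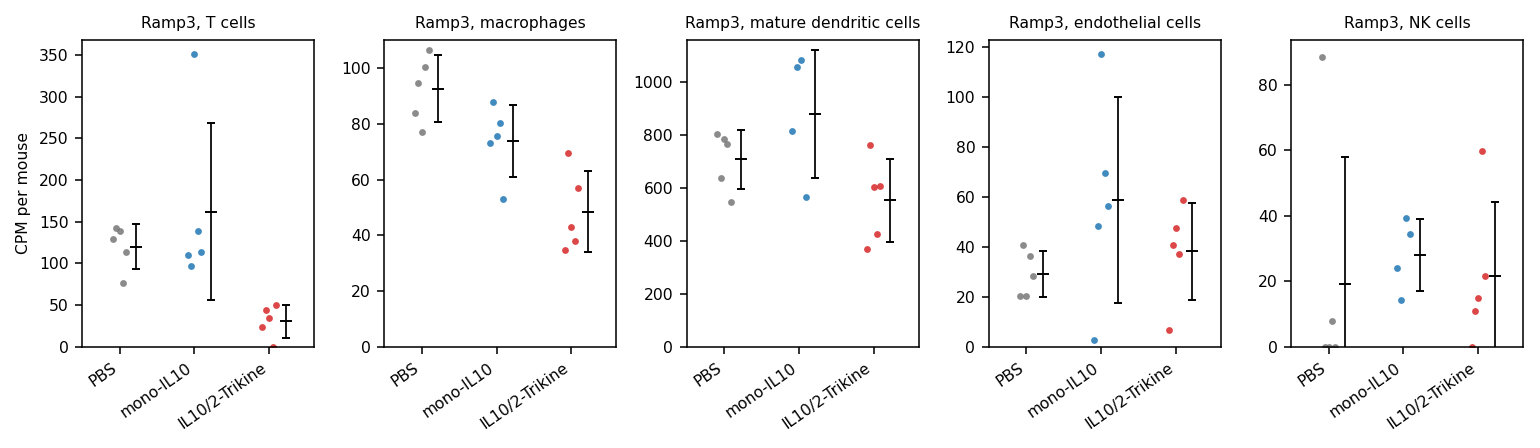
Ramp3 (CPM) in each mouse by treatment in T cells, macrophages, mature dendritic cells, endothelial cells and NK cells, with points for mice and bars for the mean ± SD. In T cells the 5 IL10/2-Trikine mice sit at 0 to 49.6 CPM, below all PBS and mono-IL10 mice, while in mature dendritic cells the groups overlap.

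With conventional dendritic cells added, dendritic Ramp3 was 343 ± 58.9 CPM in PBS, 498 ± 231 CPM in mono-IL10 and 406 ± 107 CPM in IL10/2-Trikine, and the log2 differences were 0.61 (SE 0.24, edgeR adjusted p = 0.409), 0.20 (edgeR adjusted p = 0.856) and -0.41 (edgeR adjusted p = 0.664) for mono-IL10 against PBS, IL10/2-Trikine against PBS and IL10/2-Trikine against mono-IL10. The first of these had an interval of 0.13 to 1.10 and an unadjusted edgeR p under 0.05. The second was -0.41 in mature dendritic cells alone. The mature cells, which hold more Ramp3, were 188 of 411 dendritic cells in PBS, 105 of 188 in mono-IL10 and 140 of 205 in IL10/2-Trikine. Here 0.624%, 0.37% and 0.0195% of genes were called. Conventional dendritic cells held Ramp3 at 74.8 ± 23.7 CPM in 5 PBS mice and at 79.2 and 81.0 CPM in the 2 mono-IL10 and 2 IL10/2-Trikine mice with enough cells. Dendritic Ramp1 was 17.2, 19.2, 2.57, 14.4 and 23.3 CPM in PBS and 3.06, 9.37, 0, 0 and 0 CPM in mono-IL10 (exact permutation p = 0.0238, unadjusted among 44 tests), from few UMIs. In IL10/2-Trikine it was 18.3 CPM in 1 mouse and 0 CPM in the other 4, a mean of 3.66 against 15.3 CPM in PBS (exact permutation p = 0.0635, unadjusted). Conventional cells, whose share differed between groups, gave 35 of the 48 dendritic Ramp1 UMIs in PBS. In mature dendritic cells alone, Ramp1 gave an exact permutation p against PBS of 0.357 for mono-IL10 and 0.286 for IL10/2-Trikine, unadjusted. The part of the makeup in the dendritic Ramp1 values was not tested. Calcrl in mature dendritic cells was 21.3, 42.0 and 26.7 CPM in PBS, mono-IL10 and IL10/2-Trikine, with exact permutation p of 0.341 or more in all 3 comparisons. An unnamed cluster of 973 cells led by Ccl17, Plet1 and Cd209a also held Ramp3, at 438 ± 88.8 CPM in PBS, 513 ± 82.5 CPM in mono-IL10 and 307 ± 140 CPM in IL10/2-Trikine. Its best score was for conventional dendritic cells, 0.235, just under the limit of 0.25 for a name. With the coarser clustering, those genes were among the leading genes of a conventional dendritic cluster. The conventional dendritic level given above leaves this cluster out.

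In T cells Ramp3 was lower with IL10/2-Trikine than in either other group, the contrast for which the genes were listed. It was 130, 143, 138, 76.7 and 114 CPM in the PBS mice (120 ± 26.7, from 101 UMIs in 249 cells). It was 110, 96.8, 351, 139 and 114 CPM in mono-IL10 (162 ± 107, 275 UMIs in 446 cells) and 23.7, 43.8, 34.7, 0 and 49.6 CPM in IL10/2-Trikine (30.4 ± 19.6, 20 UMIs in 181 cells). Every IL10/2-Trikine mouse was below every other mouse, and 1 mono-IL10 mouse with 50 UMIs in 26 cells stood far above its group. The log2 difference from PBS was -1.69, or 0.31 of the PBS level, and from mono-IL10 -2.03, or 0.245 of that level. Leaving out 1 mouse at a time gave -1.88 to -1.55 and -2.20 to -1.71. Between mono-IL10 and PBS, which the listing did not use, the difference was 0.34 (SE 0.29, interval -0.25 to 0.93, edgeR adjusted p = 0.622, with 1.72% of genes called), and it was 0.02 without the mouse at 351 CPM.

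The makeup of the T cells moved with the treatments too. Cycling_T cells, with less Ramp3 than act_CD4T cells in each group, made up 16.1% of PBS, 20.7% of mono-IL10 and 58.2% of IL10/2-Trikine T cells, and the act_CD4T cells, which are rich in Ramp3, were 16.4%, 15.2% and 9.36%. Without Cycling_T cells the log2 difference of IL10/2-Trikine was -1.19 from PBS and -1.86 from mono-IL10. Of the NK cell markers, 6 of 6 were detected among the T cells of each group, and their sum was 302 to 525 CPM per mouse in PBS, 584 to 1180 in mono-IL10 and 1480 to 2530 in IL10/2-Trikine. The T cell markers summed to 2620 to 3220, 3850 to 4340 and 1600 to 2200 CPM. The part that these markers play in the Ramp3 values was not tested.

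The annotated clusters differed in how Ramp3 stood with IL10/2-Trikine. In act_CD4T cells Ramp3 was 443 CPM in PBS (counting interval 354 to 547, 56 cells), 582 CPM in mono-IL10 (513 to 657, 88 cells) and 195 CPM in IL10/2-Trikine (107 to 328, 28 cells). In gdT/NKT cells it was 47.2, 50.3 and 16.6 CPM. In Treg cells it was 69.8 and 110 CPM in PBS and mono-IL10, and no UMI was seen in 24 IL10/2-Trikine cells, which allows up to 49.7 CPM. Naive_CD4T cells, at 187 CPM in PBS and 263 CPM in mono-IL10, and Th17/ILCs, at 814 and 760 CPM, were down to 1 cell each with IL10/2-Trikine, without a Ramp3 UMI, which allows up to 1500 and 1320 CPM. In Cycling_T cells, with 174 cells the largest T cell cluster of the IL10/2-Trikine library, Ramp3 was 15.0 CPM (6.85 to 28.4, from 9 UMIs), next to 15.2 CPM in mono-IL10 (8.09 to 26.0) and 62.6 CPM in PBS (37.1 to 98.9).

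**Figure D3:**
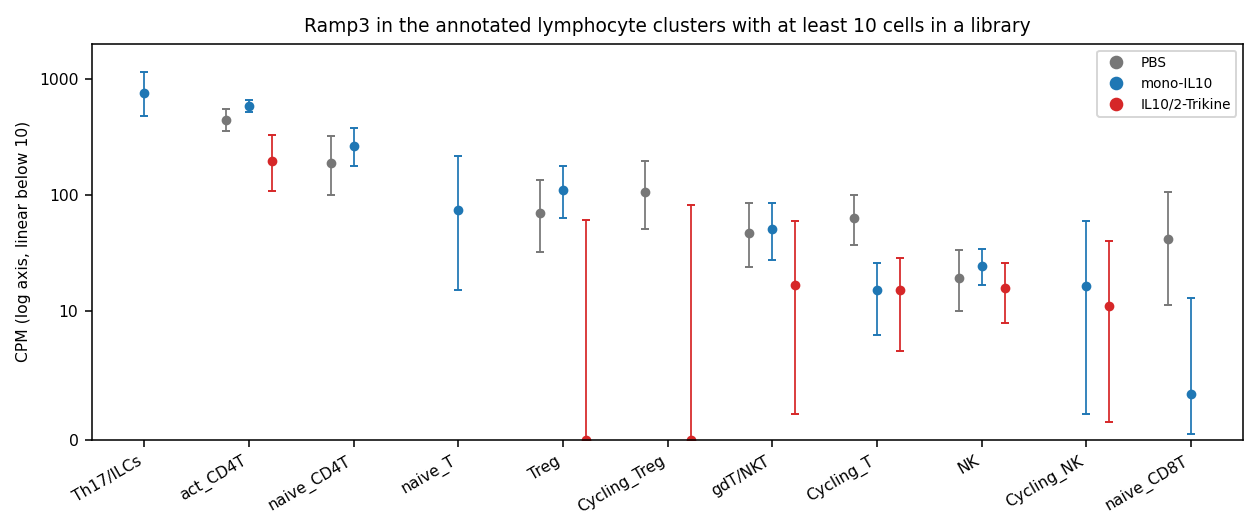
Ramp3 (CPM) in the authors' annotated T and NK cell clusters by treatment library, with exact Poisson 95% intervals that cover counting error only. Activated CD4 T cells stand at 443, 582 and 195 CPM in PBS, mono-IL10 and IL10/2-Trikine.

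The other members were low in T cells and none was covered by the test across genes. Calcrl was 30.8, 18.6, 40.4, 21.9 and 47.3 CPM in PBS and 10.6, 19.4, 14.0, 9.79 and 7.11 CPM in mono-IL10, where 4 of 5 mice lay below every PBS mouse (exact permutation p = 0.0159, unadjusted among 44 tests, from 26 and 24 UMIs). With IL10/2-Trikine it was 15.8, 19.5, 52.1, 21.4 and 16.5 CPM. Ramp1 was 56.7 ± 40.8 CPM in PBS, 31.0 ± 13.1 CPM in mono-IL10 and 47.5 ± 14.5 CPM in IL10/2-Trikine, and mono-IL10 against PBS gave an exact permutation p of 0.214. In NK cells no member was covered by the test across genes, in which 0.297% (mono-IL10 against PBS), 4.42% (IL10/2-Trikine against PBS) and 2.38% (IL10/2-Trikine against mono-IL10) of genes were called. Ramp1 there was 46.7 ± 37.7, 36.4 ± 16.3 and 48.7 ± 23.5 CPM and Ramp3 19.3 ± 38.8, 28.0 ± 11.1 and 21.5 ± 22.9 CPM in PBS, mono-IL10 (4 mice) and IL10/2-Trikine.

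Macrophages held Ramp3 in every mouse, with the lowest levels in IL10/2-Trikine. In PBS it was 84.0, 94.7, 77.1, 100 and 107 CPM (92.6 ± 12.0, 3883 UMIs in 6277 cells). In mono-IL10 it was 73.3, 87.7, 75.5, 80.2 and 52.9 CPM (73.9 ± 13.0), and in IL10/2-Trikine 34.6, 69.5, 43.0, 38.0 and 57.1 CPM (48.5 ± 14.6, 446 UMIs in 2487 cells). All IL10/2-Trikine mice were below all PBS mice, while 2 of them overlapped the mono-IL10 mice. The log2 difference was -0.96 from PBS and -0.74 from mono-IL10, and leaving out 1 mouse gave -1.18 to -0.77 and -0.96 to -0.54. With the sums of all mice thinned to 1 total it was -0.50 from PBS, and with a coarser clustering -1.37. That clustering counted as macrophages a cluster led by Pf4 with 823 PBS, 538 mono-IL10 and 2099 IL10/2-Trikine cells. In the main clustering, a cluster led by Cd163 and Pf4 (462, 397 and 1100 cells) was left out for low depth. So was another, led by Pf4 and Arg1 (627, 540 and 1358 cells). Both scored as macrophage, at 0.72 and 0.613. Their part in the differences was not tested. Mono-IL10 differed from PBS by -0.22 (SE 0.14, interval -0.52 to 0.07, edgeR adjusted p = 0.265), a direction that turned to 0.39 (edgeR adjusted p = 0.0996) without the cluster led by Ear2 and Dcstamp. Without that cluster the IL10/2-Trikine differences were -0.52 from PBS and -0.91 from mono-IL10.

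The macrophage clusters spanned a wide range of Ramp3. In 7 of the 10 clusters no listed macrophage marker was among the 10 leading genes. The cluster led by Ear2, Dcstamp and Mgl2 had the lowest macrophage marker score of the 10, 0.372, and its leading genes included H2-Eb1, H2-Ab1, H2-Aa and Cd74, genes of antigen presentation that dendritic cells carry too, so its place among the macrophages is in doubt. The cluster led by Cd74 and H2-Eb1 shared those genes with a score of 0.703. In the Ear2-led cluster, which also held the monocyte receptor Ccr2 at 322 CPM and the chemokine Ccl17 at 517 CPM, Ramp3 was 269 CPM in PBS, 349 CPM in mono-IL10 and 203 CPM in IL10/2-Trikine, and it was 19.8%, 6.24% and 9.2% of macrophages. In the cluster led by Ckap2l, Il1a and Il10 it was 89.0, 101 and 77.9 CPM. In the clusters led by Cx3cr1 and Cd72, by Cx3cr1 and Ms4a7 and by Cd163, Cbr2 and Fcna it was at most 19.2 CPM in any library. The Nrg1, Ppbp and Cd163-led cluster, with Ramp3 at 15.5 to 23.5 CPM, made up 1.86% of PBS, 31.5% of mono-IL10 and 9.52% of IL10/2-Trikine macrophages.

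**Figure D4:**
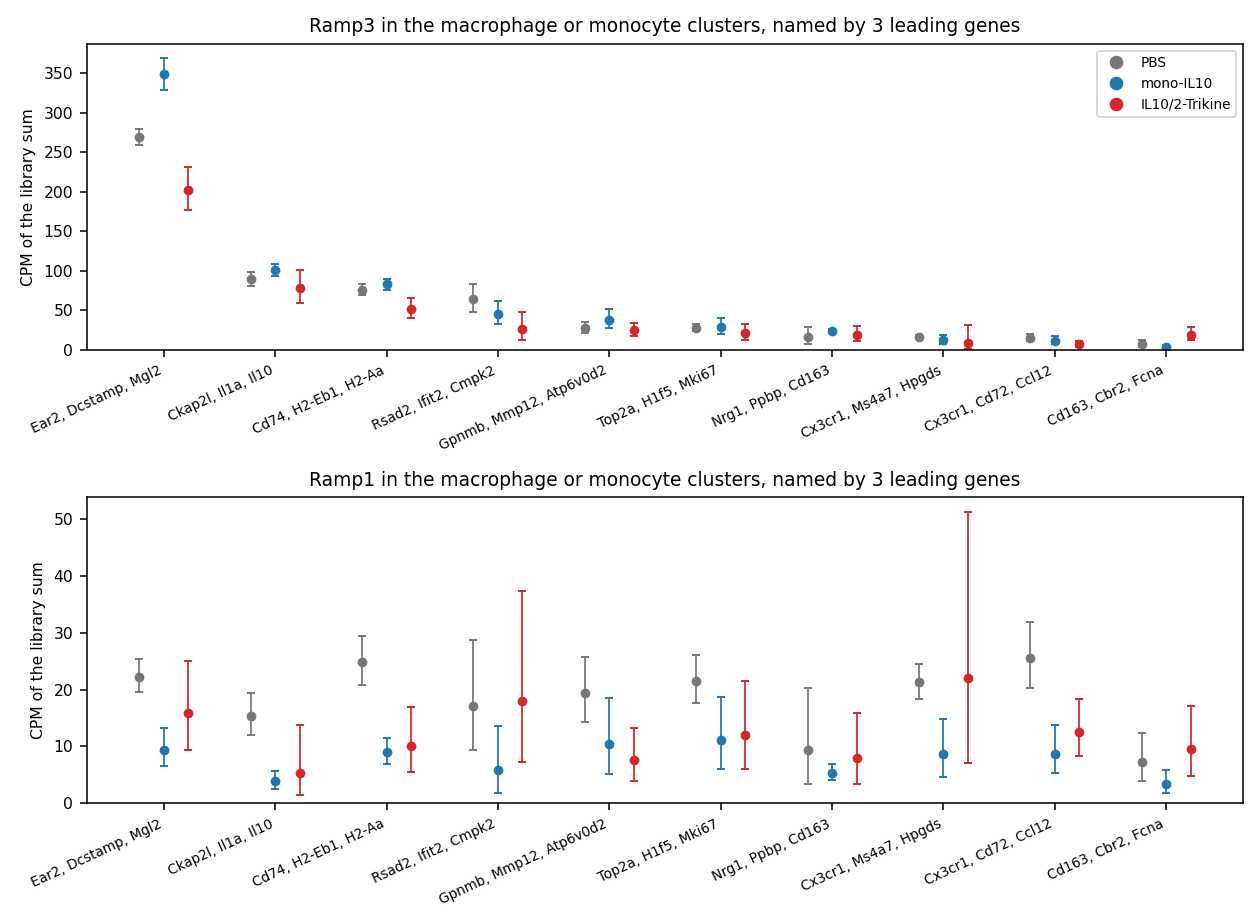
Ramp3 and Ramp1 (CPM) in the 10 macrophage clusters by treatment library, with exact Poisson 95% intervals for counting error. Ramp3 peaks in the Ear2-led cluster at 203 to 349 CPM, and Ramp1 is lower in mono-IL10 than in PBS in all 10 clusters.

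Within clusters, by library sums, IL10/2-Trikine was below PBS in 8 of 10 and below mono-IL10 in 9 of 10, and mono-IL10 was below PBS in 4 and above it in 6. By means over mice it was below PBS in 8 and below mono-IL10 in 7. The 3 clusters above mono-IL10 were those led by Cd163, Cbr2 and Fcna (17.0 against 2.54 CPM), by Gpnmb and Mmp12 (33.9 against 30.9 CPM) and by Cx3cr1 and Ms4a7 (11.6 against 10.9 CPM, from 1 IL10/2-Trikine mouse). With every library weighted to the PBS cluster shares, Ramp3 was 93.0, 113 and 70.2 CPM in PBS, mono-IL10 and IL10/2-Trikine, against 93.0, 75.0 and 45.7 CPM with their own shares. Per mouse, the Ear2-led cluster held 268 ± 35.9, 348 ± 44.2 and 197 ± 89.2 CPM. Mature dendritic cell markers, of interest because those cells are rich in Ramp3, summed to 39.6 to 71.0 CPM per PBS mouse, 21.1 to 26.9 in mono-IL10 and 17.7 to 41.3 in IL10/2-Trikine among the macrophages. T cell markers summed to 49.8 to 75.5, 21.1 to 56.8 and 62.7 to 117 CPM. Their part in the Ramp3 values was not tested.

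The member called by a test was Ramp1, the partner in the receptor for calcitonin gene-related peptide, which was lower in the macrophages of mono-IL10 mice. It was 21.5, 21.5, 21.4, 14.0 and 23.3 CPM in PBS (20.4 ± 3.62) and 6.51, 7.32, 7.01, 6.31 and 5.73 CPM in mono-IL10 (6.58 ± 0.619), with no overlap. The log2 difference was -1.53, or 0.347 of the PBS level (SE 0.14, interval -1.82 to -1.23, edgeR quasi-likelihood test, Benjamini-Hochberg adjusted p = 2.48e-07), and it lay between -1.63 and -1.48 with any 1 mouse left out. In this comparison 25.7% of all genes tested were called, and 1 of the 3 members tested. By library sums and by means over mice, Ramp1 was lower in 10 of 10 macrophage clusters, and the log2 difference was -1.53 without the Ear2-led cluster too. Tumor epithelial markers, of cells that carry Ramp1, summed to 34.4 to 75.7 CPM per mouse in PBS macrophages, 23.7 to 40.1 in mono-IL10 and 50.2 to 102 in IL10/2-Trikine, and their part was not tested.

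With IL10/2-Trikine, macrophage Ramp1 was 10.1, 8.27, 10.8, 16.8 and 9.65 CPM (11.1 ± 3.30), between the other groups, with 1 mouse within the PBS range and every mouse above the mono-IL10 mice. These differences, -0.96 from PBS and 0.57 from mono-IL10 on the log2 scale, are given with no test. Among neutrophils Ramp1 was 7.55 CPM in mono-IL10 and 19.7 CPM in PBS, from 8 and 12 UMIs. The exact permutation p was 0.0397, unadjusted among 44 tests, with 3.84% of genes called across genes. Neutrophil Ramp3 (2.15 against 16.7 CPM, exact permutation p = 0.206) and Calcrl (5.89 against 13.4 CPM, exact permutation p = 0.143) were lower as well. Macrophage Calcrl was 11.4 ± 1.86, 9.74 ± 1.49 and 10.0 ± 2.04 CPM, and mono-IL10 differed from PBS by -0.13 (edgeR adjusted p = 0.527). Ramp2 gave 2, 0 and 6 UMIs in the macrophages of the 3 groups.

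Cells that held Ramp3 rarely held Calcrl at the depth reached. Among mature dendritic cells thinned to 1500 UMIs, 270 of 433 held Ramp3, 22 held Calcrl (5.08%) and 12 held both, so that Calcrl was found in 4.44% of the Ramp3 cells (exact binomial interval 2.32% to 7.63%, counting error only). Ramp3 was found in 54.5% of the cells with Calcrl and 62.8% of those without. In T cells 131 held Ramp3, 38 Calcrl (3.11%) and 5 both, and in macrophages 1139 held Ramp3, 213 Calcrl (1.53%) and 14 both. Tumor epithelial cells held Calcrl in 0.652% of cells. They were deeper, and whether the low shares in T cells, macrophages and tumor epithelial cells exceed background was not tested. Median depths before thinning were 5141 UMIs in mature dendritic cells, 3075 in T cells, 5569 in macrophages and 12381 in tumor epithelial cells.

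**Figure D5:**
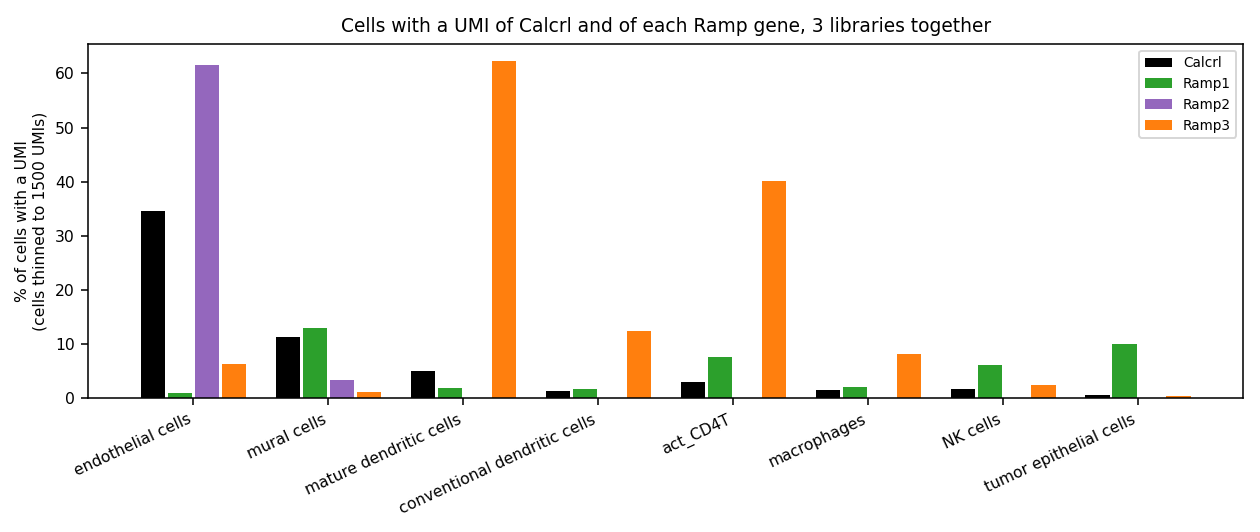
Percent of cells with at least 1 UMI of each member after thinning to 1500 UMIs per cell, by population, with the 3 libraries together. In mature dendritic cells Ramp3 was detected in more cells than Calcrl.

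Shares of cells with a Ramp3 UMI were also compared at equal depth. For PBS, mono-IL10 and IL10/2-Trikine they were 13.5%, 12.9% and 3.36% in T cells (unthinned 21.9%, 18.1% and 6.02%), and in macrophages 10.2%, 7.06% and 5.25% (unthinned 23.4%, 20.9% and 11.2%). In tumor epithelial cells they were 0.455%, 0.31% and 0.592% (unthinned 3.95%, 4.62% and 2.81%). Median UMIs before thinning were 2658, 3565 and 2772 in T cells, 5726, 6976 and 3393 in macrophages and 19812, 28537 and 8521 in tumor cells, and thinning left out at most 1 T cell, 2 macrophages and 31 tumor cells in any library. For Calcrl the T cell shares were 3.22%, 2.76% and 3.69%, and the endothelial shares 30%, 27.4% and 41.3%. Of 30 tests of shares over mice, the endothelial Calcrl share was 10.9 percentage points higher in IL10/2-Trikine than in PBS (exact permutation p = 0.0317, unadjusted) but 2.10 points lower unthinned. The endothelial Ramp2 share was 9.64 points lower in IL10/2-Trikine than in mono-IL10 (exact permutation p = 0.00794, unadjusted), and 0.338 points higher at 3000 UMIs. The dendritic Ramp1 share over mice was a mean of 3% in PBS, while no thinned mono-IL10 cell held Ramp1 (exact permutation p = 0.0476, unadjusted). In IL10/2-Trikine it was 1.03% (exact permutation p = 0.246 against PBS, unadjusted), and at 3000 UMIs that comparison gave an exact permutation p of 0.587. Unthinned, where depth differs, it was 10.7% in PBS and 0.857% in mono-IL10 (exact permutation p = 0.0159, unadjusted). The unthinned IL10/2-Trikine share was 2.07% (exact permutation p = 0.0317 against PBS, unadjusted).

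The ligands were at low levels in the cells sequenced. Adm, adrenomedullin, was at 30.6 CPM in endothelial cells, 9.78 CPM in fibroblasts and 2.48 CPM in tumor epithelial cells, where it was called lower with IL10/2-Trikine (1.57 CPM) than in PBS (2.59 CPM, log2 difference -0.67, SE 0.18, edgeR adjusted p = 0.013) and than in mono-IL10 (2.52 CPM, -0.73, SE 0.18, edgeR adjusted p = 0.00471). Calca, which encodes calcitonin and calcitonin gene-related peptide, was at 53.7 CPM in mast cells, 17.7 CPM in NK cells and 10.4 CPM in T cells. Calcb, the second gene for that peptide, was at 26.4 CPM in mature dendritic cells and 9.24 CPM in macrophages. Pam, the enzyme that amidates these peptides, was at 239 CPM in mural cells, 137 CPM in tumor epithelial cells and 102 CPM in endothelial cells. Calcr, the calcitonin receptor and the other close partner of RAMPs, had 2 UMIs in tumor epithelial cells and 0 in the other populations, which allows from 0.033 CPM in macrophages to 3.10 CPM in mast cells. Other receptors that can bind a RAMP were low as well, with Pth1r at 31.6 CPM in fibroblasts, Gper1 at 7.32 CPM in mural cells and Vipr1 at 4.31 CPM in macrophages.

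Of 53 further genes of the pathway (ligands, other receptors, receptor handling, cyclic AMP signaling and genes that respond to it), most calls were in macrophages, tumor cells and fibroblasts. In endothelial cells 27 were tested and 0 passed in any comparison by edgeR or DESeq2, with 3, 2 and 3 at an unadjusted p under 0.05, and the median log2 difference was 0.03, -0.02 and -0.02 against 0.01, 0.00 and 0.00 over all genes. In mature dendritic cells, 1 of 24 was called, Areg, which encodes the growth factor amphiregulin, with 317 CPM in PBS and 81.7 CPM in mono-IL10 (log2 difference -1.67, SE 0.33, edgeR adjusted p = 0.0243), in a comparison with 0.274% of all genes called. In the other comparisons edgeR and DESeq2 called 0 of the 24, with 1 (IL10/2-Trikine against PBS) and 4 (IL10/2-Trikine against mono-IL10) at an unadjusted p under 0.05. In NK cells, 1 of 19 was called in each IL10/2-Trikine comparison, near the 4.42% (against PBS) and 2.38% (against mono-IL10) of all genes. These were Crem, a repressor of cyclic AMP-responsive transcription, against PBS (-0.81, SE 0.20, edgeR adjusted p = 0.0195) and Pde4b, a phosphodiesterase that breaks down cyclic AMP, against mono-IL10 (-0.92, SE 0.24, edgeR adjusted p = 0.0436), which DESeq2 did not call.

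In fibroblasts, 6 of 36 pathway genes passed in IL10/2-Trikine against mono-IL10 by edgeR, and 6 by DESeq2, next to 4.28% of all genes. The 5 higher genes were all of the cyclic AMP-responsive group: the nuclear receptors Nr4a2 (158 against 82.1 CPM, log2 difference 0.86, SE 0.23, edgeR adjusted p = 0.0389), Nr4a3 (119 against 65.5 CPM) and Nr4a1 (589 against 382 CPM), the AP-1 subunit Fos (2940 against 2020 CPM) and the phosphatase Dusp1 (697 against 459 CPM). Gnas, the G protein subunit that stimulates adenylyl cyclase, was lower at 754 against 845 CPM (-0.28, SE 0.07, edgeR adjusted p = 0.0264). No other gene of the cyclic AMP-responsive group was called, with Fosl2, Per1 and Areg among those tested. The group is a list of names, cyclic AMP itself was not measured, and the cause of these differences was not tested. In the other fibroblast comparisons edgeR called 0 of 36, with 5 (mono-IL10 against PBS) and 8 (IL10/2-Trikine against PBS) at an unadjusted p under 0.05, and DESeq2 called 0 and 5. In tumor epithelial cells, 3, 12 and 20 of 41 were called in mono-IL10 against PBS, IL10/2-Trikine against PBS and IL10/2-Trikine against mono-IL10, next to 6.59%, 21.7% and 33.7% of all genes. In the last of these, 14 were higher and 6 lower, and of the cyclic AMP-responsive group 5 were higher and 2 lower. By size they were led by Nr4a3 (9.80 against 4.15 CPM, log2 difference 1.11), Pde4b (15.7 against 8.18 CPM, 0.82), Adm (1.57 against 2.52 CPM, -0.73), Areg (297 against 461 CPM, -0.70), Pde3b (6.69 against 3.95 CPM, 0.66) and Nr4a2 (98.9 against 59.9 CPM, 0.65). Of the other genes called in fibroblasts, picked here after their values were seen, Nr4a1 and Dusp1 were higher in tumor cells too and Gnas was lower, while Fos was not called. Each treatment is 1 library.

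In macrophages, 12 of 40 pathway genes passed in mono-IL10 against PBS, 10 higher and 2 lower, next to 25.7% of all genes. The higher genes included Ackr3, a scavenger receptor of adrenomedullin and chemokines, at 10.7 against 5.67 CPM (log2 difference 1.08, SE 0.29, edgeR adjusted p = 0.00914). Pam rose from 31.9 to 48.8 CPM (0.70, SE 0.09, edgeR adjusted p = 1.24e-05), and Fosl2, an AP-1 subunit, from 350 to 428 CPM (0.39, edgeR adjusted p = 0.00144). The adenylyl cyclases, which make cyclic AMP, went both ways. Adcy4 was higher at 2.78 against 1.48 CPM (0.90, edgeR adjusted p = 0.0344) and Adcy3 at 20.8 against 16.1 CPM (0.45, edgeR adjusted p = 0.0314). Adcy7, at a higher level than either, was lower at 82.5 against 101 CPM (-0.20, SE 0.07, edgeR adjusted p = 0.0363). Grk5, a kinase that desensitizes receptors, was lower at 23.9 against 37.0 CPM (-0.53, edgeR adjusted p = 0.0194). The share called, 12 of 40, was near the background of the comparison.

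In the contrasts that the listing of the genes used, the pathway genes past the threshold are counted as a description. In T cells they were 1 of 23 for IL10/2-Trikine against PBS, Crem at 249 against 406 CPM, with 8.97% of all genes called, and 2 of 23 against mono-IL10, the phosphodiesterases Pde3b at 178 against 322 CPM and Pde7a at 158 against 276 CPM, with 12.3% called. In macrophages they were 2 of 40 against PBS, Pam higher at 46.9 against 31.9 CPM and Pde3b lower at 148 against 199 CPM, with 12% called, and 7 of 40 against mono-IL10, 2 higher and 5 lower, with 10.5% called. Crem led the latter at 242 against 351 CPM. In T cells, mono-IL10 against PBS, 0 of 23 passed by edgeR or DESeq2, with 4 at an unadjusted p under 0.05.

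Across the 20 populations and annotated clusters, the genes most like each member in log2(CPM + 1) were found by Pearson r among genes that reached 50 CPM somewhere. For Ramp2 they were Shank3 (r = 0.989), Plvap (0.988), Aplnr (0.987), Stmn2 (0.985) and Emcn (0.983), of which Plvap and Emcn are among the endothelial markers used to name the cells. Ramp3 was matched less closely, by Pcgf5 (0.808), Snhg15 (0.798), Il7r (0.786), Tle3 (0.78) and Tob2 (0.77). For Calcrl they were Snrk (0.776), Ccdc186 (0.775), Lnx2 (0.774), Mrtfb (0.743) and Anxa7 (0.741), and for Ramp1 Tcea1 (0.82), Prxl2a (0.819), Emp3 (0.803), Dad1 (0.802) and Rnf6 (0.801). The 20 points share 3 libraries and differ in depth and cell number, so these are descriptions. With a pseudocount of 10 in place of 1, 0 of the 5 genes were kept for Calcrl, which was then matched by Nts, Rapgef3, Cdh5, Myct1 and Emcn, while 2 were kept for Ramp1, 2 for Ramp2 and 4 for Ramp3.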

How the data were processed

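Single-cell gene expression had been measured in 3 libraries, 1 for each of PBS, mono-IL10 and IL10/2-Trikine, each with a hashtag library for 5 mice. The authors made the deposited matrices with Cell Ranger on GRCm39, and the values are raw UMI counts, 1 for each gene in each barcode, and per the labels Seurat 5.1.0 and DESeq2 1.46.0 were used downstream. The authors' deposited table gives UMI counts, gene counts, the percent of mitochondrial UMIs, mouse and 1 of 12 T or NK clusters. A further 7858 cells in it belong to a group whose library was not analysed here.

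The study's filter was applied to the barcodes (1000 or more genes, 10% or less mitochondrial UMIs). Mice were called with HTODemux (Seurat 5.3.0, quantile 0.99), and unannotated cells with more than 1 hashtag were left out as doublets. Annotated cells were kept whatever their hashtag call, with the mouse of the authors' table. Those without a mouse entered the library sums, shares and makeup of clusters, but not the sums per mouse. The call gave the same mouse as the authors' table for all 330 PBS, 628 mono-IL10 and 382 IL10/2-Trikine annotated cells that had a mouse in both. All kept cells were grouped by k-means (scikit-learn 1.9.0) on 40 components of 2000 variable genes into 60 clusters named from marker lists, and annotated cells kept the authors' cluster in place of that name. A cluster of 2046 cells whose markers scored as macrophage but whose leading genes were T cell genes was left unnamed, a choice made after those genes were seen.

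Counts were summed per mouse with at least 10 cells and tested with edgeR 4.0.16 (quasi-likelihood, 1 fit per population over the 3 groups, R 4.3.3), with Benjamini-Hochberg adjustment over all genes that passed filterByExpr and a threshold of 0.05. Of the member comparisons, 43 were tested so, 8 were described only and 61 were under the filter; of the latter, 44 had a mean CPM per group that was tested over mice by exact two-sided permutation. Shares of cells were compared after thinning to 1500 UMIs. The edgeR step was tested on simulated data. Alternatives were DESeq2 1.42.0, no filter, 20 cells per mouse, 2000 genes per cell, a coarser clustering, thinned counts, leaving out each mouse, leaving out Cycling_T cells and, added after seeing the data, leaving out the Ear2-led macrophage cluster. Figures and sums were made with Python 3.11.15, numpy 2.4.6, scipy 1.17.1, pandas 2.3.3 and matplotlib 3.10.9.

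The members, marker lists and pathway list were chosen with earlier results of these data known. Named genes were the 4 members, pathway genes past the threshold, ligands and receptors of the list with their level, the 5 genes most like each member among those reaching 50 CPM, and markers where a population was checked. The pathway genes were at most 6 per population and comparison, by size, and fewer or none of those past the threshold in some comparisons. Adcy7 in macrophages, and Nr4a1, Dusp1 and Gnas in tumor cells, were named beyond these. Depth was 30528 to 55504 barcodes and medians of 5198 to 8078 UMIs per barcode.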

Additional observations from a re-analysis of the deposited data

Results flagged for a closer look

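In groups of 4 or 5 mice, a sample counts as far from the others when its gap to the nearest one, divided by the range of the group, passes Dixon's 95% critical value. Of 84 groups of member levels, 12 passed. The critical value is meant for 1 in 20 groups of normally spread values, which sparse counts are not. Where only 1 mouse held a UMI the ratio is 1 by construction, so 12 cannot be set against that rate. Ramp3 in T cells of mono-IL10 mice had 1 mouse at 351 CPM next to 139 CPM (gap over range 0.835), from 50 UMIs in 26 cells. Calcrl in T cells of IL10/2-Trikine mice had 1 at 52.1 CPM next to 21.4 CPM (0.846), from 3 UMIs in 19 cells. In NK cells of PBS mice, Ramp3 had 1 at 88.5 CPM next to 7.77 CPM (0.912, from 3 UMIs in 10 cells) and Ramp2 1 mouse at 7.77 CPM with the others at 0 (a ratio of 1, from 1 UMI).

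In macrophages, the lowest PBS mouse had Ramp1 at 14.0 CPM below 21.4 CPM (0.788, from 92 UMIs) and the lowest mono-IL10 mouse had Calcrl at 7.10 CPM below 10.1 CPM (0.839, from 45 UMIs), while Ramp2 was seen in 1 PBS mouse at 0.157 CPM with the others at 0 (a ratio of 1, from 2 UMIs). Ramp1 was seen in 1 IL10/2-Trikine mouse among dendritic cells, at 18.3 CPM, and among mature dendritic cells, at 23.4 CPM, from the same 6 UMIs, with the others at 0 (a ratio of 1 each). In tumor epithelial cells Ramp3 had 1 PBS mouse at 6.94 CPM next to 4.18 CPM (0.721) and 1 IL10/2-Trikine mouse at 6.11 CPM next to 4.05 CPM (0.778), and the lowest mono-IL10 mouse had Ramp1 at 50.1 CPM below 70.9 CPM (0.762).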

How the results depend on the processing

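For 51 log2 differences of the members, 1021 values were computed under other settings, of which 1011 kept their direction and side of the threshold or moved by less than the spread between mice. Of the 43 tested differences only 1 was called, so most could change much in size and still count as kept. For the 8 described only, a move counted only beyond the spread between mice, which is wide for sparse counts. The 1011 is therefore no measure of stability. Ramp3 in macrophages, IL10/2-Trikine against PBS, was -0.50 when the sums of all mice were thinned to 1 total and -1.37 with 30 components and 40 clusters, and against mono-IL10 it was -1.05 with that clustering. Without the Ear2-led cluster, an alternative chosen after seeing the data, it was -0.52 for IL10/2-Trikine against PBS and 0.39, in place of -0.22, for mono-IL10 against PBS. Macrophage Calcrl, IL10/2-Trikine against PBS, was 0.18 in cells with at least 2000 genes, in place of -0.07. Dendritic Ramp3, IL10/2-Trikine against PBS, was -0.41 in mature dendritic cells alone, in place of 0.20, an alternative chosen after seeing the data. Endothelial Ramp3, mono-IL10 against PBS, passed the threshold with no filter (1.01, edgeR adjusted p = 0.0244), and it was 0.27 in mice with at least 20 cells, where IL10/2-Trikine against mono-IL10 was 0.21 in place of -0.57. Tumor epithelial Ramp2, near 1 CPM, was 0.14 for mono-IL10 against PBS and -0.10 for IL10/2-Trikine against mono-IL10 with thinned sums. The endothelial Calcrl share, IL10/2-Trikine minus PBS, was -2.10 percentage points unthinned, and the endothelial Ramp2 share, IL10/2-Trikine minus mono-IL10, 0.338 points at 3000 UMIs. The cause of these changes was not tested. Among the unadjusted tests, 13 values fell short of and 11 newly passed the threshold for members under the filter, and 6 and 5 for shares of cells.

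The number of genes called depended on the setting. For mono-IL10 against PBS, IL10/2-Trikine against PBS and IL10/2-Trikine against mono-IL10, edgeR called 1, 24 and 13 genes in endothelial cells, DESeq2 57, 83 and 49, and edgeR with no filter 191, 188 and 128. In T cells it called 55, 286 and 391, with thinned sums 18, 93 and 114, and without Cycling_T cells 26, 41 and 137. In NK cells it called 7, 104 and 56, and with thinned sums 3, 48 and 16. In macrophages it called 3115, 1452 and 1275, and with thinned sums 736, 524 and 308. In dendritic cells it called 32, 19 and 1, with no filter 125, 184 and 114, with thinned sums 2, 15 and 3, and with 30 components and 40 clusters 129, 66 and 77. In fibroblasts it called 9, 94 and 381, DESeq2 92, 210 and 441, edgeR with no filter 46, 178 and 526, and with 30 components and 40 clusters 15, 232 and 713. With any 1 mouse left out the counts were 0 to 17, 16 to 40 and 1 to 16 in endothelial cells, 20 to 70, 151 to 304 and 277 to 417 in T cells, 3 to 13, 61 to 101 and 9 to 72 in NK cells, 2493 to 3229, 1094 to 1471 and 636 to 1312 in macrophages, 8 to 35, 0 to 53 and 0 to 23 in dendritic cells, 7 to 14, 37 to 137 and 188 to 401 in fibroblasts, 0, 0 to 14 and 0 in mural cells and 500 to 1345, 2599 to 3316 and 4377 to 5089 in tumor epithelial cells.

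No paired analysis was possible because each mouse belongs to 1 treatment and hashtag numbers name different animals in each library. Depth limited the rare members most, with 61 member comparisons under the filter on low counts.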

Other observations

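Ramp3 was also counted in clusters of lymphocyte genes that the authors' table does not annotate and that stayed unnamed here, since macrophage markers were detected in them as well. In the cluster led by Il2ra, Tnfrsf4 and Foxp3, the transcription factor of regulatory T cells, Ramp3 was 109 CPM in PBS (counting interval 100 to 118, 595 cells), 96.8 CPM in mono-IL10 (87.1 to 107, 370 cells) and 38.3 CPM in IL10/2-Trikine (31.9 to 45.7, 692 cells). In the cluster led by Cd8a, Themis and Gzmk, genes of CD8 T cells, it was 87.3, 69.6 and 41.1 CPM in the same order. The clusters led by Grap2, Cd8a and Bcl11b (91.0, 51.1 and 35.6 CPM), by Gzmc, Xcl1 and Il2rb (60.5, 69.8 and 27.5 CPM) and by Gzma, Klra8 and Prf1 (44.4, 35.7 and 17.7 CPM) also had their lowest value in the IL10/2-Trikine library. These clusters were picked after their values were seen, each treatment is 1 library, and macrophages carry Ramp3 too, so they are values with no test, and the part of macrophage RNA in them was not tested.

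Among unnamed myeloid clusters, 1 of 844 cells led by Acod1, an enzyme of itaconate synthesis, and S100a8 held Ramp3 at 120 CPM over the 3 libraries, and 1 of 1071 cells led by Mmp12 and Cxcl3 held it at 101 CPM.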
